A study of Mus musculus with 764 samples.

Results

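The 10 genes described here encode chemoattractant receptors that guide T cells from blood into tissue and within it. They were taken by name from the 23997 gene rows of the count tables, and each had a row: Cxcr6, Ccr9, Cxcr3, Ccr2, Ccr4, Ccr8, Cxcr4, Ackr3, Gpr183 and Ltb4r1. Single CD4+ T cells with an active IL-10 eGFP reporter were sorted from the small intestine (SI) or the spleen of mice that carried this reporter together with a red Foxp3 mRFP reporter, and that had been injected with an antibody against CD3. Cells from both tissues had the same reporters and the same antibody, and untreated cells were not analysed here. Foxp3-expressing cells were included by the study as a control, so the spleen cells were a mixture. Of 764 deposited cells, 190 came from the SI and 574 from the spleen.

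The spleen cells fell into 3 well sets by plate code and well column, namely p1 columns 1-12, p1 columns 13-24 and p2. After removal of 50 cells with few reads and of 177 cells called S or G2M, 137 SI cells and 133, 145 and 122 cells of these spleen sets were compared. Kept cells had from 162801 to 622997 reads on genes, with medians of 324546 in the SI and of 366140, 362505 and 315920 in the spleen sets. The SI cells shared the plate code p2 with 1 spleen set but not its well columns, so tissue and position on that plate cannot be told apart. For the intestine, the study's methods give incubation with EDTA, digestion with collagenase and a Percoll gradient. They describe no such steps for the spleen, so tissue and cell preparation cannot be told apart either. Each cell was deposited as 1 sample and the labels named no animal. Each tissue therefore counted as 1 sample, no difference has a replicate check, and no test was run. Intervals in brackets are 95% exact binomial (Clopper-Pearson) intervals for shares of cells. Where no cell was found, a limit of 3 cells divided by the number of cells is stated, which is lower than the upper bound of the exact interval. Intervals and limits, those of read counts included, cover counting error only, since the libraries had no molecular identifiers and several PCR reads can stem from 1 molecule.

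Chemokine receptors are G protein-coupled receptors that steer cells along gradients of chemokines, and other receptors of the same class read lipids in the same way. In the gut, epithelial cells of the small intestine make CCL25, the ligand of CCR9, and gut-homing T cells are known for this receptor. In the spleen, oxysterols read by GPR183 and chemokines position T cells between the T cell zone, the follicles and the red pulp. The labelled cell type was checked first: the T cell genes Cd3e and Cd3g and the lineage gene Cd4 had at least 10 reads in 97.9% to 100% of the cells of each set. Cd8a, a gene of the CD8 lineage and of gut T cells, had at least 10 reads in 19.7% of SI cells and in 0.25% of spleen cells. Cd8b1, the other CD8 gene read, went the other way, with as many reads in 5.84% of SI cells and in 14.3%, 10.3% and 9.84% of the spleen sets. Foxp3, the defining gene of regulatory T cells, had at least 10 reads in 54.1% of p1 columns 1-12, 13.1% of p1 columns 13-24, 4.1% of p2 and 3.65% of SI cells. The summed level of 3 regulatory T cell markers went from 192 CPM in the SI to 335 CPM in p2, 670 CPM in p1 columns 13-24 and 1200 CPM in p1 columns 1-12. Foxp3 itself was not lower in the SI than in p2, with means of 43.1 and 24.4 CPM. The other markers, Il2ra and Ikzf2, were lower in the SI, at 93.3 and 55.8 CPM against 182 and 129 CPM in p2. CPM gives a gene's reads as a share of the cell's total, scaled to a common library size of 1000000 reads. Over the lists of other markers, the summed level in the SI and over all spleen cells was 528 and 40.1 CPM for 2 CD8 genes, 20.4 and 11.6 CPM for 4 B cell genes, 4.2 and 0.0154 CPM for 1 plasma cell gene, 153 and 190 CPM for 5 myeloid genes, 26 and 2.35 CPM for 3 innate lymphoid genes and 30.5 and 36.6 CPM for 5 epithelial genes. The 2 erythroid genes were at 0 CPM. Most of the myeloid sum was Cst3, at 151 CPM in the SI and 186 CPM over all spleen cells. Cst3 had at least 10 reads in 63.5% of SI cells and 68.25% of spleen cells. Lyz2, Csf1r, Itgax and Cd14 were each at most 1.77 CPM in the SI and 2.43 CPM over all spleen cells. Cd79b held most of the B cell sum, at 19.7 and 7.72 CPM. Kit held most of the innate lymphoid sum in the SI, at 24.8 CPM. Epcam held most of the epithelial sum in the spleen, at 29.8 CPM. Most of the CD8 sum in the SI was Cd8a, since Cd8b1 was at 38.4 CPM in the SI and 31.1 CPM over all spleen cells. The part of either cell type in the values below was not tested, beyond the recalculations without such cells that are given beside the results.

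Of the 10 genes, 5 lie on chromosome 9, and Ccr9, Cxcr6 and Ccr2 lie in 1 stretch of that chromosome. On the RefSeq annotation of GRCm38.p6 the start of Cxcr6 was 39.3 kb and that of Ccr2 335 kb from the start of Ccr9. The 250 bases before the start of 4 genes are shown, because Cxcr6 and Ccr9 were neighbours and the 2 receptors found in most SI cells, Cxcr3 had the highest share of cells over the whole spleen, and Ltb4r1 was found with Cxcr6 in the spleen. The regions are chr9:123806227-123806476 (plus strand) for Cxcr6, chr9:123766961-123767210 (plus strand) for Ccr9, chrX:101734148-101734397 (minus strand) for Cxcr3 and chr14:55765712-55765961 (plus strand) for Ltb4r1, each written 5′ to 3′ in the direction of the gene. Capitals mark the core letters TGTGGT of sites for RUNX factors, transcription factors of T cells, or the same letters on the other strand, ACCACA.
Cxcr6: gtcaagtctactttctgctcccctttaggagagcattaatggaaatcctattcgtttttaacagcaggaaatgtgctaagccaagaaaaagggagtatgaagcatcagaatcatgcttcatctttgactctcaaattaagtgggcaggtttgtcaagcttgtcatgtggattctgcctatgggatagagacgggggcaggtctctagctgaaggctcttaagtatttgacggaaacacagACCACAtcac
Ltb4r1: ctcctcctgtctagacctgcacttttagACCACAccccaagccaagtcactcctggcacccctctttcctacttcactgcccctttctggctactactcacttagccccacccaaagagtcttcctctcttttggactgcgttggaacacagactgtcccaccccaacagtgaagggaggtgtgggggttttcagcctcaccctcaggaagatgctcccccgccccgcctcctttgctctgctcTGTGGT
Cxcr3: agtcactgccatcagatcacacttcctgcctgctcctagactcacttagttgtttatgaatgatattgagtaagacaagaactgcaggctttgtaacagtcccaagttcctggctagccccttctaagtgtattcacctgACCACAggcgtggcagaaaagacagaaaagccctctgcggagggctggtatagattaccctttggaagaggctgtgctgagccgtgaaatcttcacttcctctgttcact
Ccr9: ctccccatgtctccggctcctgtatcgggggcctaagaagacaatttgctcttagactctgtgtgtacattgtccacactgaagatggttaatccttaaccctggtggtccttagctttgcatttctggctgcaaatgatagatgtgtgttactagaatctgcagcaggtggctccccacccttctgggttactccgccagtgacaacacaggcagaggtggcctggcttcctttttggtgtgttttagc
The core letters were in this window of 4 of the 10 genes, namely Cxcr6, Ltb4r1, Cxcr3 and Ackr3, and in 14.2% of the 27025 windows of all genes in the table. In Cxcr6 they ended 4 bases, and in Ltb4r1 0 bases, before the gene's start. The core letters of T-box factor sites, TCACACC, searched on both strands, were in none of the 10 windows and in 3.31% of all windows. The E-box letters CAGCTG, which read the same on either strand, were likewise in none of the 10 and in 12.8% of all windows. These matches describe letters and were not tested for binding.

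Between the tissues, 3 receptors were higher in the SI and 2 were lower by a size rule of at least 2-fold in mean CPM against each of the 3 spleen sets, with a pseudocount of 1 CPM. Higher were Ccr9, Cxcr4 and Ackr3, beside 7.68% of 11865 genes that passed this rule upwards. Lower were Cxcr3 and Ccr8, beside 10.1% of those genes downwards. The other 5 receptors (Cxcr6, Ccr2, Ccr4, Gpr183 and Ltb4r1) passed in neither direction. The median log2 ratio, SI over all spleen cells, was -0.05 for the 10 receptors and -0.22 for all genes compared, on the log2 scale of mean CPM plus 1, which understates the ratio of low genes. With TMM or DESeq2 scaling the median over all genes was -0.02 or 0.01, the background became 9.33% upwards and 7.71% downwards (TMM) or 9.61% and 7.58% (DESeq2), and 3 higher and 2 lower receptors were counted under both. The 3 higher and the 2 lower receptors were the same without cells that had a Foxp3 read, and the same without cells with at least 10 reads of Cd8a.

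**Figure D1:**
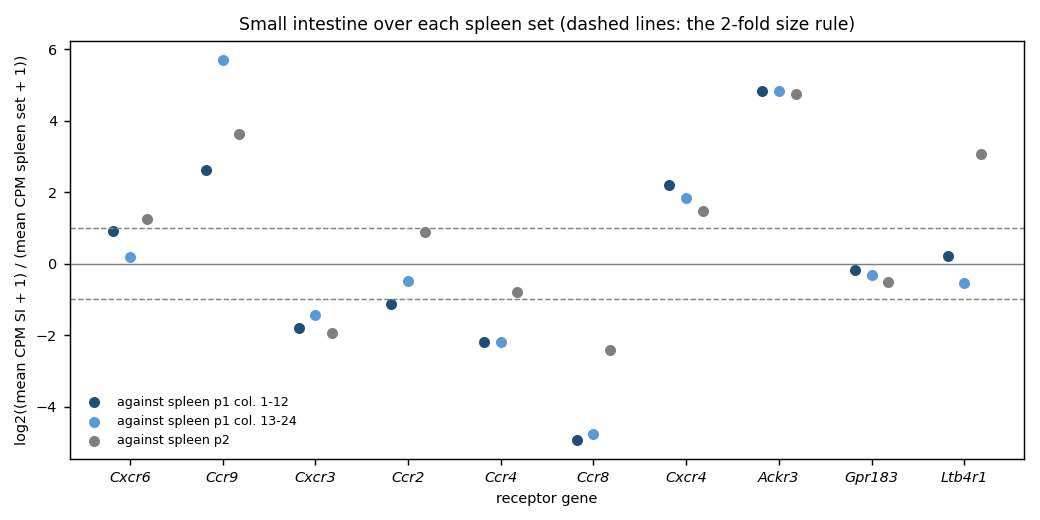
Log2 ratio of mean CPM plus 1, SI over spleen, for each receptor gene (x axis), with 1 point for each spleen set and dashed lines at the 2-fold size rule. Ccr9, Cxcr4 and Ackr3 lie above the upper line and Cxcr3 and Ccr8 below the lower line against each set, while Ltb4r1 and Ccr2 change sign between spleen sets.

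Receptors of homing to the gut came first. Ccr9, the receptor for CCL25, had at least 10 reads in 78.8% of SI cells (71.0 to 85.3). In the spleen it had as many in 14.3% of p1 columns 1-12 (8.83 to 21.4), 3.45% of p1 columns 13-24 (1.13 to 7.86) and 4.92% of p2 cells (1.83 to 10.4). No spleen interval reached the SI interval. Per cell, Ccr9 went from 0 to 5261 CPM in the SI with a median of 679 CPM, while the median was 0 CPM in each spleen set. The highest spleen cell, in p2, had 6851 CPM, above the highest SI cell, and 3 cells held 92.8% of the Ccr9 reads of p2. Mean levels were 1002 ± 1078 CPM in the SI (SD over 137 cells) and 163, 18.3 and 81.0 CPM in the spleen sets, which gave log2 ratios of 2.61, 5.70 and 3.61. In cells with at least 10 reads, the median was 1018 CPM in the SI and 735, 539 and 445 CPM in the spleen sets, so the tissues differed more in how many cells had Ccr9 than in its level per such cell. Within p1 columns 13-24, 4 of 19 cells with at least 10 reads of Foxp3 and 1 of 119 cells without a Foxp3 read had Ccr9. Without cells that had a Foxp3 read, the shares of Ccr9 cells were 78.1% in the SI and 10.4%, 0.84% and 3.51% in the spleen sets. Lztfl1, a gene on the opposite strand that overlaps the annotated extent of Ccr9, was also higher in the SI, at 142 CPM against 44.3, 23.1 and 33.9 CPM. Whether the counting used strand was not given in the sources used here, so reads of the overlap cannot be told apart.

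Cxcr6, the receptor for the membrane-bound chemokine CXCL16 and a gene of tissue-resident T cells, was the receptor with the highest mean CPM per kb of transcript in the SI, at 680 CPM per kb, and Ccr9 followed at 193 CPM per kb. It had at least 10 reads in 81.8% of SI cells (74.3 to 87.8). The spleen shares were 40.6% (32.2 to 49.5) in p1 columns 1-12, 48.3% (39.9 to 56.7) in p1 columns 13-24 and 30.3% (22.3 to 39.3) in p2. Thus the share of Cxcr6 cells was higher in the SI than in each spleen set, with intervals apart. Per cell, the SI median was 918 CPM and the spleen medians were 3.91, 10.3 and 0 CPM, while the highest cell of each set lay between 6355 and 7670 CPM. In cells with at least 10 reads, the median was 1141 CPM in the SI and 1050, 1891 and 1166 CPM in the spleen sets. The spleen cells that had Cxcr6 thus had it at a level of the same order as the SI cells. Mean levels of 1291 ± 1361 CPM in the SI (SD over 137 cells) and of 685, 1131 and 547 CPM in the spleen sets gave log2 ratios of 0.91, 0.19 and 1.24, of which only the last passed 2-fold. Fyco1, which overlaps Cxcr6 on the opposite strand, had 72.7 CPM in the SI and 43.9 CPM over all spleen cells, far below Cxcr6.

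**Figure D2:**
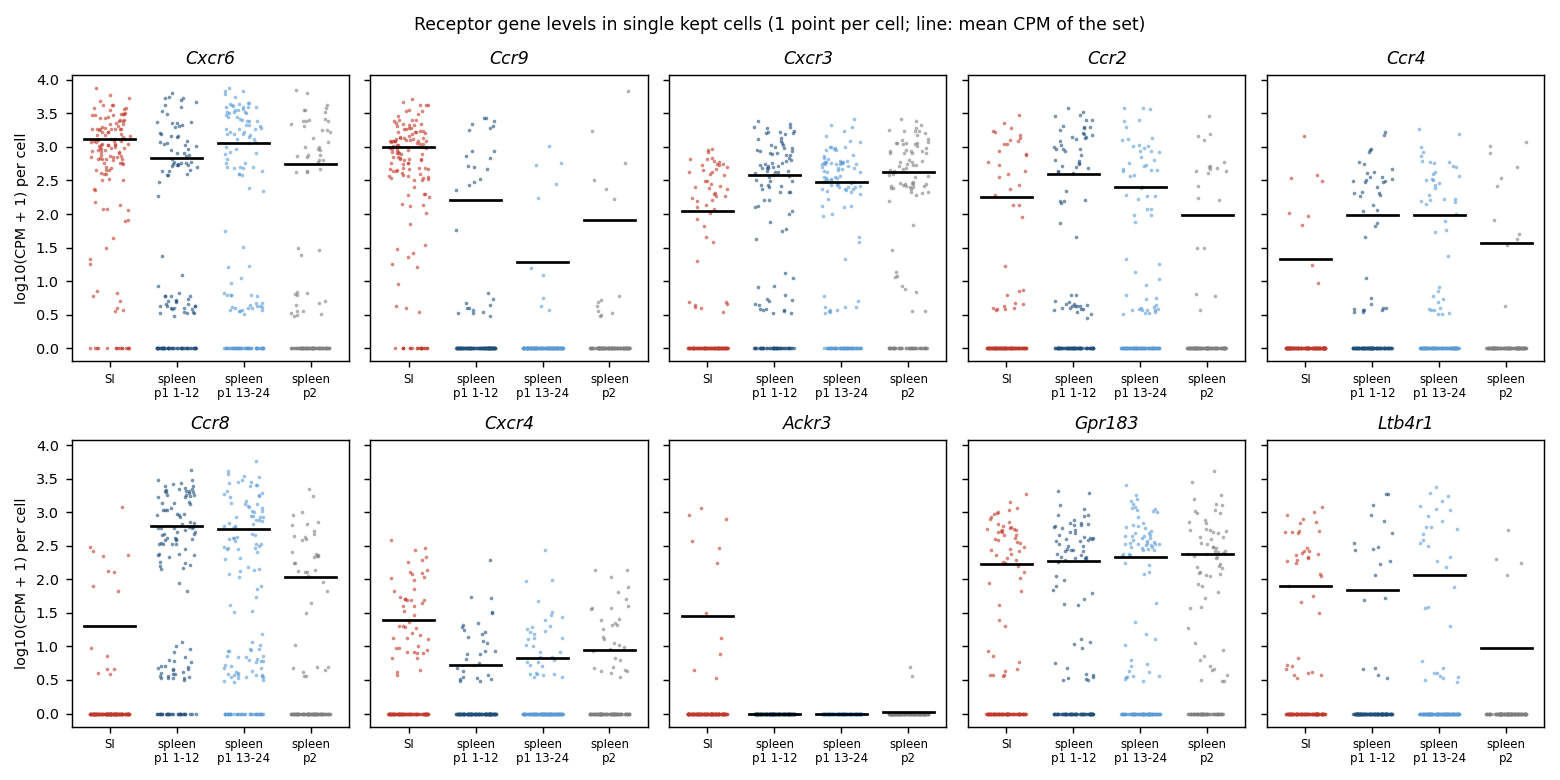
Level of each receptor gene in single kept cells as log10 of CPM plus 1 (y axis), by well set (x axis), with 1 point per cell and a line at the mean CPM of the set. Ccr9 and Cxcr6 had at least 10 reads in 78.8% and 81.8% of SI cells, Ccr8 in 6.57% of SI and 44% of spleen cells, and in most panels cells fall into a group at 0, a low group of few reads and a high group.

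Inflammatory chemokine receptors leaned to the spleen. Cxcr3, a receptor of Th1 cells for CXCL9 and CXCL10, had at least 10 reads in 29.9% of SI cells (22.4 to 38.3). The spleen shares were 52.6% (43.8 to 61.3), 53.8% (45.3 to 62.1) and 54.1% (44.8 to 63.2) in p1 columns 1-12, p1 columns 13-24 and p2. These 3 shares were close to each other and their intervals lay above the SI interval. The SI median was 0 CPM with a highest cell of 919 CPM, and the spleen medians were 75.05, 130 and 213 CPM with highest cells of 2396 to 2641 CPM. Cells that had the gene also had less of it in the SI, with a median of 309 CPM against 536, 445 and 571 CPM. Mean levels were 109 ± 212 CPM in the SI (SD over 137 cells) and 386, 299 and 424 CPM, which gave log2 ratios of -1.81, -1.45 and -1.95. Without cells that had a Foxp3 read, Cxcr3 was found in 28.9% of SI cells (21.2 to 37.6) and in 39.6% (25.8 to 54.7), 50.4% (41.1 to 59.7) and 53.5% (43.9 to 62.9) of the spleen sets, so that the intervals of the SI and p1 columns 1-12 then overlapped.

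Ccr2, the receptor for CCL2, was found in 18.2% of SI cells (12.2 to 25.7), 32.3% (24.5 to 41.0) of p1 columns 1-12, 26.2% (19.3 to 34.2) of p1 columns 13-24 and 13.9% (8.33 to 21.4) of p2 cells. The SI share lay between those of the spleen sets. The mean levels of 176 CPM in the SI and of 390, 249 and 95.7 CPM in the spleen sets gave log2 ratios of -1.14, -0.50 and 0.87, so the direction depended on the spleen set. Ccr2 cells were few and high, with medians of 796 CPM in the SI and of 947, 553 and 472 CPM in the spleen sets. Without cells that had a Foxp3 read, Ccr2 was found in 14.8% of SI cells and in 22.9%, 21.8% and 13.2% of the spleen sets. Its mean was then 96.7 CPM in the SI and 279, 183 and 95.6 CPM in the spleen sets.

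Ccr8 and Ccr4 are receptors of regulatory and Th2 cells. Ccr8, which reads CCL1, had at least 10 reads in 6.57% of SI cells (3.05 to 12.1), against 57.1% (48.3 to 65.7), 48.3% (39.9 to 56.7) and 24.6% (17.2 to 33.2) in the spleen sets. The SI was below each spleen set, and p2 below both p1 sets. Per cell, Ccr8 reached 1200 CPM in the SI and 4278, 5845 and 2199 CPM in the spleen sets, with a median of 227 CPM in p1 columns 1-12 and of 0 CPM in the SI. Mean levels were 19.3 ± 112 CPM in the SI (SD over 137 cells) and 615, 555 and 108 CPM, with log2 ratios of -4.92, -4.78 and -2.42. Leaving out cells with a Foxp3 read, 6.25% of SI cells and 33.3%, 41.2% and 21.9% of the spleen sets had Ccr8, so the SI share was again below each spleen share. Ccr4, which reads CCL17 and CCL22, followed the same order at lower shares, with 5.11% (2.08 to 10.2) in the SI, 21.8% (15.1 to 29.8) and 21.4% (15 to 29) in the p1 sets and 8.20% (4 to 14.6) in p2. The intervals of the SI and p2 overlapped for Ccr4. Its log2 ratios were -2.19, -2.19 and -0.79, and without cells with a Foxp3 read its shares were 4.69% in the SI and 6.25%, 16% and 8.77% in the spleen sets.

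**Figure D3:**
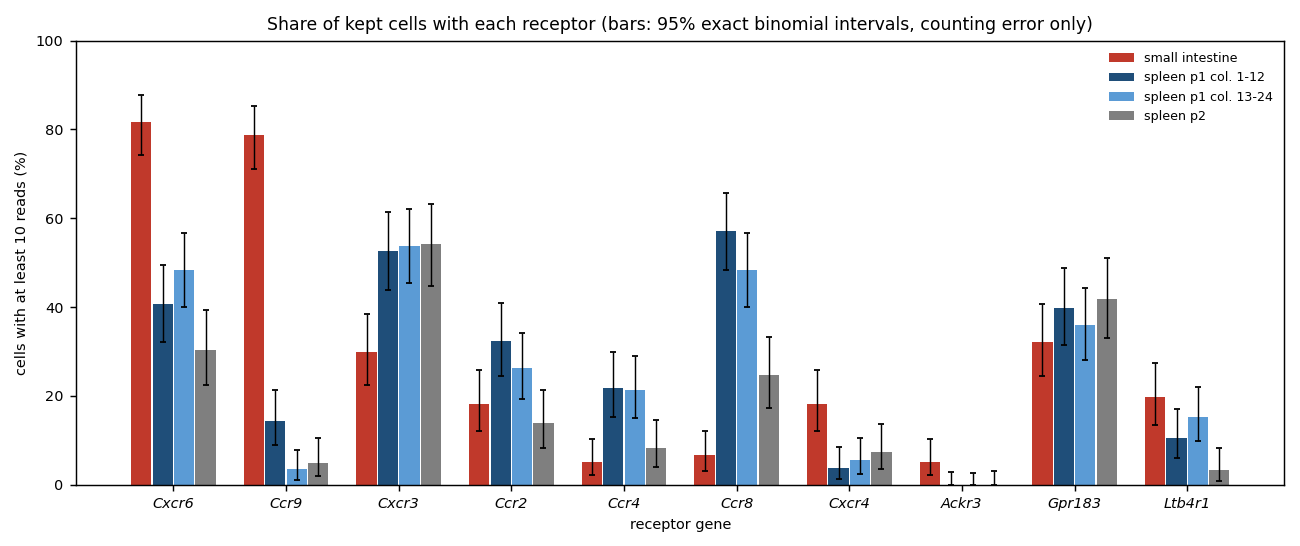
Percent of kept cells with at least 10 reads (y axis) of each receptor gene (x axis) in the SI and in the 3 spleen sets, with 95% exact binomial intervals that cover counting error only. The SI bars stand apart from all 3 spleen bars for Cxcr6, Ccr9, Cxcr3 and Ccr8, while the 4 bars of Gpr183 overlap.

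Cxcr4 and Ackr3 share the ligand CXCL12, CXCR4 as a signalling receptor and ACKR3 as an atypical receptor that removes chemokine. Both were low. Cxcr4 had at least 10 reads in 18.2% of SI cells (12.2 to 25.7) and in 3.76% (1.23 to 8.56), 5.52% (2.41 to 10.6) and 7.38% (3.43 to 13.5) of the spleen sets. The intervals of the SI and p2 overlapped. Its mean was 23.4 ± 59.1 CPM in the SI (SD over 137 cells) and 4.29, 5.82 and 7.73 CPM in the spleen sets, with log2 ratios of 2.21, 1.84 and 1.48. A further 24 SI cells and 75 spleen cells had from 1 to 9 reads of Cxcr4, so its share of cells was sensitive to depth. After thinning each cell to 200000 reads, the share was 15.2% in the SI and 1.56%, 2.19% and 4.46% in the spleen sets.

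Ackr3 was found in few cells. It had at least 10 reads in 7 SI cells, 5.11% (2.08 to 10.2), and in 0 of 400 spleen cells, for which 3 cells of the total give a limit of 0.750% and the exact interval an upper bound of 0.918%. The p1 sets had 0 reads of Ackr3, and p2 had 2 reads in 2 cells. The SI cells had 1192 reads in all, of which 3 cells held 75.9%. Relative to all reads summed over the set, Ackr3 was at least 429-fold and at least 460-fold higher in the SI than in p1 columns 1-12 and p1 columns 13-24, taking 3 reads as the limit of a set with none. Against p2 the ratio was 543 (150 to 4490, exact interval of the read counts, which takes reads as independent and is therefore too narrow). These ratios rest on 11 SI cells with a read, and without the 3 highest cells of each set the log2 ratio over all spleen cells was 2.94 rather than 4.80.

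Gpr183 and Ltb4r1 read lipids. Gpr183, the receptor for oxysterols, was found in 32.1% of SI cells (24.4 to 40.6) and in 39.8% (31.5 to 48.7), 35.9% (28.1 to 44.2) and 41.8% (32.9 to 51.1) of the spleen sets. All 4 intervals overlapped, and the mean levels of 167 CPM in the SI and 188, 211 and 237 CPM in the spleen sets gave log2 ratios of -0.17, -0.33 and -0.50. The highest Gpr183 cells had 1866 CPM in the SI and up to 4095 CPM in the spleen. Without cells that had a Foxp3 read, Gpr183 was found in 29.7% of SI cells and in 20.8%, 31.9% and 39.5% of the spleen sets. Its mean was then 147 CPM in the SI and 83.2, 203 and 228 CPM in the spleen sets. The SI mean thus lay above that of p1 columns 1-12 and below the others. Ubac2, a gene on the opposite strand that overlaps Gpr183, had 441.5 CPM in the SI and 202.0 CPM over all spleen cells. It was thus above Gpr183 in the SI. As the use of strand in the counting was not given, reads of this overlap cannot be told apart either.

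Ltb4r1, the receptor for leukotriene B4, was found in 19.7% of SI cells (13.4 to 27.4), 10.5% (5.88 to 17) of p1 columns 1-12, 15.2% (9.76 to 22.1) of p1 columns 13-24 and 3.28% (0.900 to 8.18) of p2. Its intervals in the SI and in both p1 sets overlapped, and p2 lay below the SI. The mean of 78.7 CPM in the SI stood against 67.7, 115 and 8.53 CPM in the spleen sets, so that the log2 ratio was 0.21, -0.54 and 3.06. In p2, 3 cells held 91.8% of the Ltb4r1 reads.

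The order of the receptors within a set, in mean CPM per kb of transcript, was Cxcr6, Ccr9, Cxcr3, Gpr183 and Ltb4r1 in the SI, at 680, 193, 63.1, 61.4 and 56.4 CPM per kb. In the spleen as a whole, Cxcr6 stood at 424, Ccr8 at 373, Cxcr3 at 212 and Gpr183 at 77.6 CPM per kb, and Ccr9 at 16.5 CPM per kb. The spleen sets differed in this order: Ccr8 stood at 523, 473 and 91.7 CPM per kb in p1 columns 1-12, p1 columns 13-24 and p2, at ranks 1, 2 and 3 of the 10 genes, against rank 7 in the SI. Ccr9 had rank 2 in the SI and ranks 8, 8 and 6 in the spleen sets. The last 3 places in the SI, Cxcr4, Ackr3 and Ccr4, held 13, 8.90 and 7.19 CPM per kb.

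Cells carried several of these receptors at once. Counting a receptor where a cell had at least 10 reads of it, the mean number per cell was 2.96 ± 1.49 in the SI (SD over cells) and 2.73 ± 1.55, 2.58 ± 1.31 and 1.89 ± 1.29 in p1 columns 1-12, p1 columns 13-24 and p2. At least 2 receptors were found in 86.9% of SI cells (80.0 to 92.0). The spleen sets had at least 2 in 75.9% (67.8 to 82.9), 82.8% (75.6 to 88.5) and 54.9% (45.7 to 63.9). The SI and both p1 sets overlapped, and p2 lay below them. None of the 10 receptors was found in 1.46% of SI and 11.5% of p2 cells. The most frequent combination in the SI was Cxcr6 with Ccr9 and no other receptor, in 18 cells, followed by the same 2 with Cxcr3, in 16 cells. In p2, Cxcr3 alone was first with 20 cells and Gpr183 alone second with 15 cells, while Cxcr3 with Gpr183 came first in p1 columns 13-24 with 16 cells. In p1 columns 1-12 no combination of receptors held more than 7 cells, 8 cells had none, and there were 60 distinct states over 133 cells.

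Pairs of receptors in the same cell were set beside the number given by the product of their shares. In the SI, Cxcr6 and Ccr9 were found together in 88 cells, and the product gave 88.3. So the most frequent SI pair was as frequent as the high share of each gene gives. Cxcr6 and Ccr2 were together in 30, 31 and 15 cells of p1 columns 1-12, p1 columns 13-24 and p2, where the products gave 17.5, 18.3 and 5.16 cells. The phi coefficient of this pair, which is 0 where the product holds, was 0.41, 0.40 and 0.51 in the spleen sets and 0.08 in the SI. Cxcr6 and Ltb4r1 had phi values of 0.32, 0.40 and 0.28 in the spleen sets, with 12 of 14, 21 of 22 and 4 of 4 Ltb4r1 cells also having Cxcr6. Cxcr6 and Ccr8 were together more often than the product in p1 columns 13-24 (45 against 33.8 cells) and in p2 (19 against 9.10 cells), but not in p1 columns 1-12 (31 against 30.9 cells). Ccr4 and Ccr8 were together in 21 cells of each p1 set, against 16.6 and 15 cells.

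Gpr183 was read with its partners in each tissue, and the difference between tissues was not tested. In the spleen it was found with Cxcr6 in 16, 12 and 8 cells, where the products gave 21.5, 25.1 and 15.5 cells. In the SI it was found with Ltb4r1 in 20 cells against 8.67 and with Ccr2 in 17 cells against 8.03. Of the 27 SI cells with Ltb4r1, 74.1% had Gpr183, against 21.8% of the other SI cells. Ccr2, Gpr183 and Ltb4r1 were together in 10 SI cells, 7.30% (3.56 to 13), where the product of the 3 shares gave 1.16%, and in 4 of 400 spleen cells. The 7 Ackr3 cells of the SI also had Gpr183. The pairs named here were chosen after their values were seen, and phi values across cells of 1 set share that set's animals, plate and sort.

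**Figure D4:**
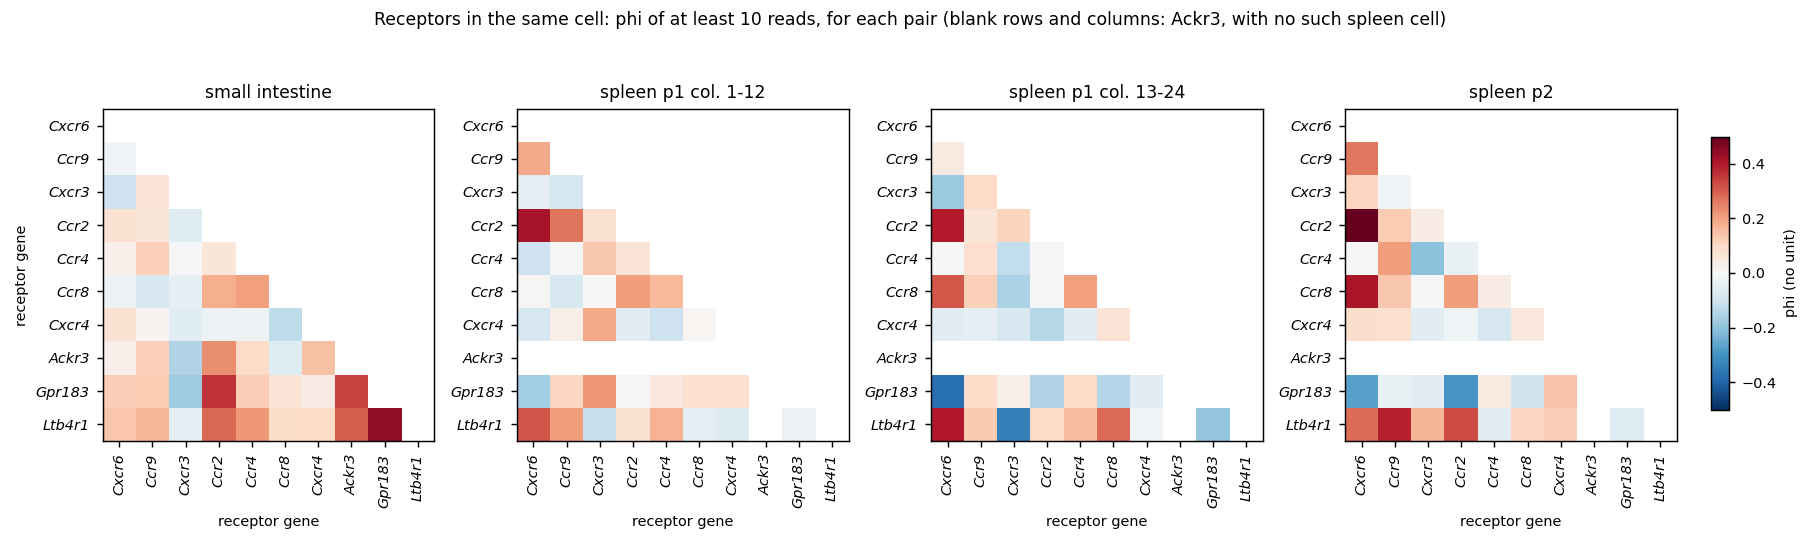
Phi coefficient (colour scale, no unit) for each pair of receptor genes with at least 10 reads in the same cell, in the SI and in the 3 spleen sets. In the SI the highest value, 0.45, is that of Gpr183 with Ltb4r1, and in the spleen sets Cxcr6 with Ccr2 stands at 0.41, 0.40 and 0.51. Ackr3 is blank in the spleen, where no cell had 10 reads.

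The receptors were then read against genes that mark kinds of T cells, comparing cells with at least 10 reads of such a gene with cells that had none. In the SI, Il17a, the cytokine of Th17 cells, had at least 10 reads in 23 cells. Of these, 69.6% (47.1 to 86.8) had Ltb4r1, against 9.26% (4.53 to 16.4) of the 108 SI cells without an Il17a read. Gpr183 was found in 73.9% (51.6 to 89.8) against 22.2% (14.8 to 31.2), and Ccr2 in 39.1% (19.7 to 61.5) against 14.8% (8.71 to 22.9). The same receptors were less frequent in SI cells with integrins of residency in the epithelium. Among 82 cells with Itgae, which encodes the alpha chain of the CD103 integrin, 17.1% had Gpr183 and 6.10% had Ltb4r1, against 57.1% and 42.9% of the 49 cells without a read. Among 58 cells with Itga1, the collagen-binding CD49a, these shares were 15.5% and 5.17%, against 49.3% and 34.8% of 69 cells. Ccr9 was found in 67.2% of the Itga1 cells and in 89.9% of the cells without Itga1. None of the 27 Cd8a cells of the SI had Ltb4r1 (a count of 0 permits up to 11.1%), and 25.5% of the 98 cells without a Cd8a read had it. Median reads per cell were between 321646 and 338019 on both sides of these SI comparisons.

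In the spleen, Cxcr6 separated cells by granzyme and lymphoid genes. Of the cells with Gzmb, a granzyme of cytotoxic cells, 62.3%, 81.6% and 71.9% had Cxcr6 in p1 columns 1-12, p1 columns 13-24 and p2, against 18.2%, 28.8% and 22.7% of cells without a read. Ccr2 followed, at 60.4%, 42.9% and 40.6% against 6.82%, 15.4% and 0 of 22 cells, a count that permits up to 13.6%. Havcr2, the co-inhibitory receptor TIM-3, went with Cxcr6 too, at 73.3%, 89.1% and 84.2% against 30.2%, 26.4% and 17.6%. In cells with Ccr7, the receptor that leads T cells to the T cell zone, Cxcr6 was found in 0 of 11, 0 of 19 and 4 of 63 cells of the spleen sets (the counts of 0 permit up to 27.3% and 15.8%), and in 44.8%, 55.2% and 56.9% of cells without Ccr7. Gpr183 differed in the other direction in 2 of these sets, with 68.4% and 54.0% of Ccr7 cells against 32.8% and 31.4% in p1 columns 13-24 and p2. In p1 columns 1-12 it was found in 27.3% of 11 Ccr7 cells and 41.4% of the others. Cxcr5, the receptor of follicular T cells, was read with Gpr183 at 59.6% against 21.9% in p1 columns 13-24, but at 47.4% against 40.4% in p1 columns 1-12 and 43.3% against 39.6% in p2. Cxcr6 was found in fewer of the Cxcr5 cells in each spleen set, at 21.1%, 13.5% and 16.7% against 53.8%, 67.1% and 45.3%.

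Foxp3 could be compared in the p1 sets, where at least 10 cells stood on each side. In p1 columns 1-12, Ccr8 was found in 76.4% (64.9 to 85.6) of 72 Foxp3 cells and in 33.3% (20.4 to 48.4) of 48 cells without a read. In p1 columns 13-24 these shares were 89.5% (66.9 to 98.7) of 19 cells and 41.2% (32.2 to 50.6) of 119 cells. Ccr4 followed, at 30.6% and 47.4% of Foxp3 cells against 6.25% and 16%. Gpr183 also was more frequent, at 52.8% and 63.2% against 20.8% and 31.9%, and Cxcr3 at 61.1% and 78.9% against 39.6% and 50.4%. Ccr2 was likewise more frequent, at 41.7% and 57.9% against 22.9% and 21.8%. Cxcr6 had no common direction, with 31.9% against 52.1% in p1 columns 1-12 and 57.9% against 46.2% in p1 columns 13-24.

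**Figure D5:**
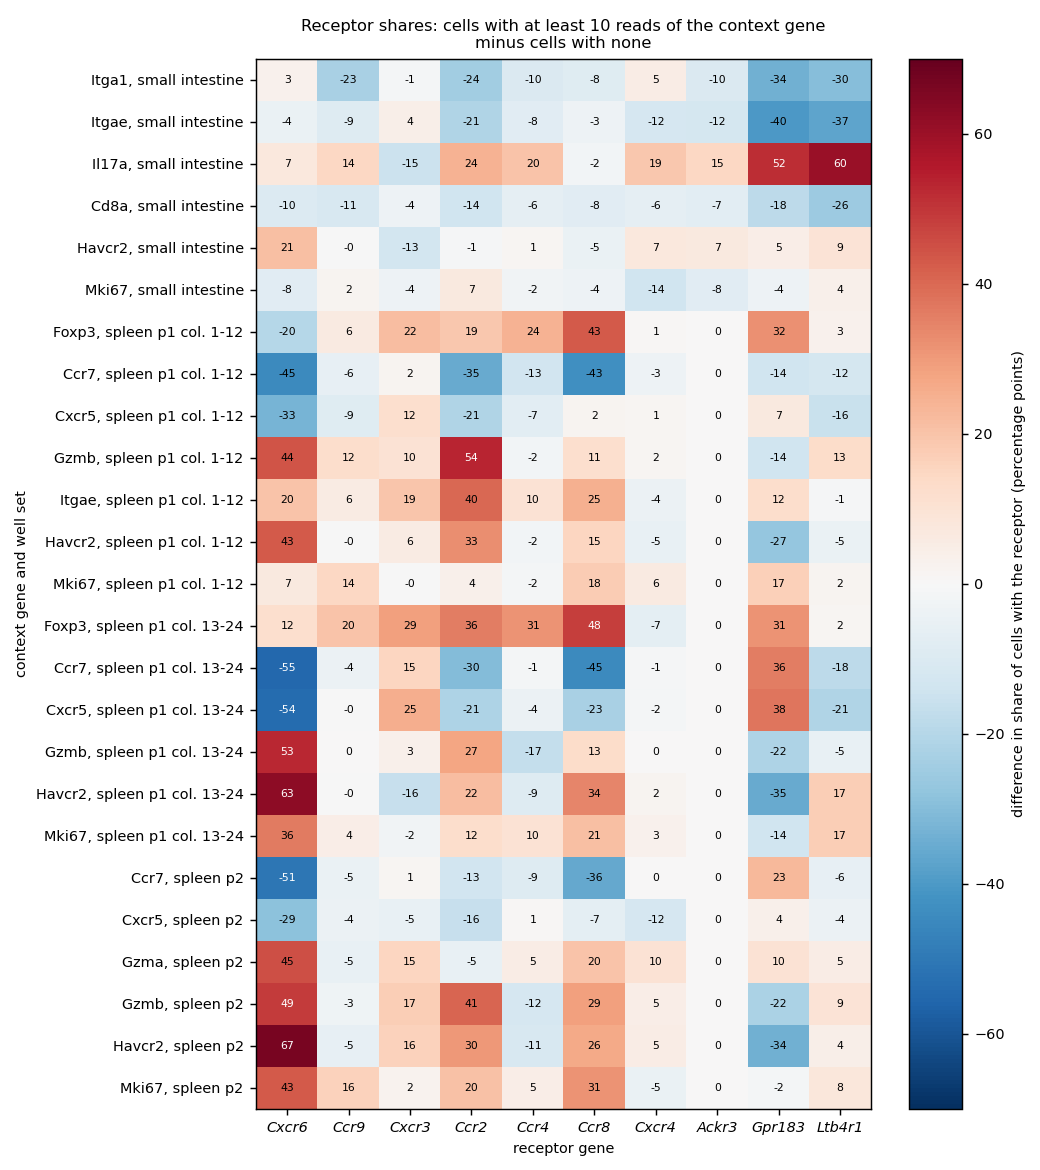
Colour and printed values give, for each receptor gene (x axis), its share of cells among those with at least 10 reads of a context gene minus its share among those with none, in percentage points, for each context gene and well set (y axis) with at least 10 cells on each side. The highest SI values are those of Il17a with Ltb4r1 and Gpr183, and in the spleen Cxcr6 is positive with Gzmb and Havcr2 and negative with Ccr7 and Cxcr5.

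The genes whose level across cells was most like that of each receptor were taken from 5704 to 6601 genes by the mean Spearman correlation over the sets where the receptor had at least 10 reads in 20 cells. For Cxcr6 these were Havcr2 (0.41), Lgals1 (0.40) and Id2 (0.40) over 4 sets. In the SI alone these were 0.17, 0.16 and 0.12, and in the spleen sets they went from 0.38 to 0.65. Ccr8 was most like Ctla4 (0.38), Tnfrsf4 (0.33) and Ly6a (0.33) over 3 spleen sets. Ccr2 was most like Lgals1 (0.33), S100a6 (0.32) and Cxcr6 (0.31), the last with 0.09 in the SI, and Ccr4 was most like Foxp3 (0.26), Unc119 (0.23) and Matk (0.22). In the SI, Ccr9 was most like Sdc4 (0.41), Ltb4r1 (0.40) and Ccr1 (0.39), and Cxcr4 was most like Ets1 (0.39), Cdon (0.37) and Lag3 (0.33). Ltb4r1 was most like Emb (0.40), Tmem64 (0.39) and Capg (0.38) over 2 sets. Weaker values were found for Gpr183, with Tmsb10 (0.27), Rpl32 (0.26) and Rpl13 (0.22, with -0.02 in the SI), and for Cxcr3, with Gimap7 (0.23), Ipcef1 (0.20) and Glrx (0.19). The cells of 1 set share plate and sort and differ in depth, so these values are descriptions. Ackr3 was in too few cells for this.

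Other genes of the pathway were read from lists. The list of other chemoattractant receptors also held orphan and lipid receptors, such as Gpr171 and Gpr34, so its counts do not stand for chemokine receptors alone. Of its 21 genes that could be compared, 8 were higher and 6 lower in the SI by the size rule, beside 7.68% and 10.1% of all genes. The median log2 ratio was 0.84 beside -0.22 over all genes. For 2 of the 8, Ccr1l1 and Cmklr1, a single SI cell held the reads of that tissue. Among the higher were Gpr171, an orphan receptor, at 1207 CPM in the SI and 275 CPM over all spleen cells, Gpr18 at 585 and 274 CPM, P2ry10 at 485 and 113 CPM, and Gpr34, a receptor for lysophosphatidylserine, at 228 and 0.669 CPM. The lower genes included receptors of recirculation through lymphoid tissue, with Ccr7 at 0.0863 CPM in the SI and 259 CPM in the spleen, Cxcr5 at 0.357 and 384 CPM and S1pr1 at 2.16 and 278 CPM. Of 38 genes of receptor signalling and desensitisation, 5 were higher and 1 was lower, beside the same 7.68% and 10.1% of all genes, with a median log2 ratio of -0.18. Rgs1, a regulator that ends G protein signals, was at 8416 CPM in the SI and 624 CPM in the spleen, and Rgs2 at 237 and 11.7 CPM. The arrestins Arrb1 and Arrb2, which desensitise receptors, were at 69.0 and 158 CPM in the SI and at 15.7 and 61.7 CPM in the spleen. Tiam1, an activator of Rac, was lower at 10.3 and 35.6 CPM, and Pik3r6 was at 1.78 CPM in the SI and had 0 CPM in each spleen set. Of 7 ligand or ligand enzyme genes that could be compared, 1 was higher and 1 lower, beside 7.68% and 10.1% of all genes. Ccl1, a ligand of CCR8, was lower, at 0 CPM in the SI and 3.13, 123 and 1.56 CPM in the spleen sets. These levels rest on few cells, since 0.752%, 3.45% and 1.64% of the cells of these sets had at least 10 reads. Ccl22, a ligand of CCR4, was higher, at 1.01 CPM in the SI, from the reads of 1 cell, and 0 CPM in the spleen.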

How the data were processed

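The authors deposited read counts per gene, made from SMART-seq2 libraries (full-length cDNA without molecular identifiers) of single sorted cells, with 1 column per cell. Reads were aligned with STAR, per the submitters' processing notes, which name mm10, while the study's methods name another build. The counting tool, its use of strand and the annotation were not given in the sources used here. Positions are therefore those of the reference, not of the deposited counts.

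Cells with log reads or log genes more than 3 median absolute deviations below the tissue median were removed (limits of 170584 reads and 1765 genes in the small intestine, 161898 and 1793 in the spleen), and cyclone (scran 1.30.0, R 4.3.3) then gave the S and G2M calls by which further cells were left out. Doublets were not called, as each well had received a single sorted cell. CPM used the gene rows of a cell, the reporter row left aside, and set means gave each cell equal weight. The size rule was a log2 ratio of at least 1, or at most -1, against each of 3 spleen sets, with a pseudocount of 1 CPM, over genes with a mean of at least 1 CPM in either tissue. A cell had a receptor with at least 10 reads. Poisson or binomial intervals are exact (scipy 1.17.1). Thinning drew 200000 reads per cell without replacement, which left out 5 small intestine and 23 spleen cells. Lengths are of the longest CCDS transcript (GENCODE M21). Promoter bases come from RefSeq, where the 10 genes matched by symbol. In windows of 50 bases, Ccr9 shared 4.35%, Ccr2 1.91% and Ccr4 0.495% of its transcript with other genes, and the other members 0%. The scripts were tested on simulated data. Scaling alternatives used edgeR 4.0.16 (TMM) and DESeq2 1.42.0 (size factors), and pandas 2.3.3 held the tables.

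The 10 genes, the lists and the motifs were chosen with earlier results of these data known. Genes named beside the 10 were those of each list past the size rule (the 5 with the largest mean CPM where more passed), the 3 genes most like each receptor, genes that overlap a receptor, and the genes of T cell kinds listed. Genes of the lists named outside this rule were chosen after their values were seen.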

Additional observations from a re-analysis of the deposited data

Results flagged for a closer look

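Some pairs of receptors had opposite signs of phi in the SI and in each of the 3 spleen sets, and the difference between the tissues was not tested. In the SI, phi was 0.45 for Gpr183 with Ltb4r1, 0.36 for Ccr2 with Gpr183 and 0.12 for Cxcr6 with Gpr183. In p1 columns 1-12, p1 columns 13-24 and p2, Gpr183 with Ltb4r1 had -0.03, -0.20 and -0.06, Ccr2 with Gpr183 had -0.0044, -0.15 and -0.29, and Cxcr6 with Gpr183 had -0.17, -0.38 and -0.27. Ccr8 with Cxcr4 had -0.13 in the SI, where the product of the shares gave 1.64 cells and 0 were found, and 0.01, 0.07 and 0.06 in the spleen sets.

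Cells called S or G2M were left out of the comparisons, 34 from the SI and 47, 39 and 57 from the spleen sets. In them, the whole 95% exact binomial interval of several receptors lay above the share among the kept cells of the same set. The share of all genes for which this holds was not computed, so it cannot be read as particular to the receptors. In the SI these were Cxcr6, at 97.1% of the removed cells, Gpr183 at 55.9% and Ltb4r1 at 35.3%. In p1 columns 1-12 they were Cxcr3 at 68.1%, Ccr4 at 42.6%, Ccr8 at 74.5% and Gpr183 at 55.3%. In p1 columns 13-24 they were Cxcr6 at 74.4% and Ccr2 at 43.6%, and in p2 Cxcr6 at 54.4% and Ccr8 at 45.6%. The mean level did not always follow the share: it was lower in the removed than in the kept cells for Cxcr6 (929 against 1291 CPM) and Ltb4r1 (69.1 against 78.7 CPM) in the SI, for Cxcr3 in p1 columns 1-12 (299.8 against 386 CPM), and for Cxcr6 (945 against 1131 CPM) and Ccr2 (229 against 249 CPM) in p1 columns 13-24. In the other 6 it was higher, as for Gpr183 in the SI (338 against 167 CPM). These differences were not tested.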

How the results depend on the processing

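Leaving out cells with Foxp3 reads or with Cd8a was chosen after seeing the data. Against p2 alone, 5 receptors were higher, with Cxcr6 and Ltb4r1 added. The share of cells with at least 2 receptors became 94.9% in the SI and 89.5% in the spleen when 1 read was enough, and in the spleen it was 82.8% in p1 columns 13-24 alone, 54.9% in p2 alone and 66.2% without cells with a Foxp3 read. With a pseudocount of 10 CPM, 2 receptors were higher, without Cxcr4, and Ccr4 was also lower against the pooled spleen and without the 3 highest cells of each set. Of 130 recomputed log2 ratios, 112 stayed within the range of that gene's main ratios against the spleen sets and the pooled spleen, and 18 left it. Some of these could not leave it. The settings against the pooled spleen and without a filter on low genes repeat the main ratio, and the p2 ratio is part of the range. Of 140 shares, 120 stayed within the 95% interval of the main share and 20 left it. The sign was the same under each setting run for 8 receptors, while Ccr2 went from -0.76 to 0.87 and Gpr183 from -0.50 to 0.01. These settings included p2 alone but neither p1 set alone. Against p1 columns 13-24 the log2 ratio of Ltb4r1, 1 of these 8, was -0.54. Genes called upwards and downwards among all genes numbered 911 and 1196, against 313 and 484 with a pseudocount of 10 CPM, 1689 and 2420 against p2 alone, 1332 and 2444 against the pooled spleen, and 2854 and 807 without a filter on cells. The cause of these changes was not tested. Depth limits the share for Cxcr4, since 75 of its 97 spleen cells with a read had under 10. No paired analysis was possible because the labels name no animal and the columns carry no shared replicate number.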

Other observations

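The stretch of chromosome 9 from Ccr9 to Ccr2 (435.1 kb in GENCODE M21) was read as a whole, after its values were seen. Of its 9 protein-coding genes with a row, 4 were higher and 1 was lower in the SI by the size rule, beside 7.68% and 10.1% of all genes. The 4 were Ccr9 itself, Lztfl1, Ccr1 and Ccr1l1. Lztfl1 overlaps the annotated extent of Ccr9, and reads of that overlap cannot be told apart, so the 4 are not independent. Ccr1, a receptor for CCL3 and CCL5 whose start lies 201.5 kb from that of Ccr9, was at 183 CPM in the SI and at 24.5, 42.2 and 3.82 CPM in the spleen sets. Ccr3, 254.8 kb from Ccr9, was at 1.04 CPM in the SI and 5.80 CPM over all spleen cells. Xcr1, 94.8 kb away, was at 16.7 CPM in the SI and at 0.526, 21.9 and 4.70 CPM in the spleen sets, with no common direction. Ccr1l1, 1 of the 4, was at 1.59 CPM in the SI from the reads of 1 cell, without which it would be at 0 CPM as in each spleen set. Neighbours on this stretch thus differed in direction, with Ccr9 and Ccr1 higher in the SI, Cxcr6 past the rule in 1 of 3 spleen sets and Ccr2 changing sign between spleen sets.

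Among the triples of receptors, which were chosen after the pairs were seen, Cxcr6 with Ccr2 and Ccr8 was found in 20, 13 and 8 cells of p1 columns 1-12, p1 columns 13-24 and p2, or 15%, 8.97% and 6.56% of cells, where the products of the shares gave 7.50%, 6.11% and 1.04%. In the SI this triple was found in 4 cells, 2.92% (0.801 to 7.31). Cxcr6 with Ccr9 and Cxcr3 was found in 26 SI cells, 19% (12.8 to 26.6), beside a product of 19.3%.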
